A study of Mus musculus with 18 samples.

Results

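The expression of 9 transcription factors that specify or maintain glial cells was examined in sorted cell fractions of the adult mouse brain. The genes were chosen by name, and for each the raw counts of all table rows carrying its symbol were summed. The 9 genes take up 73 of the 116873 transcript rows and are 9 of the 35823 gene names in the table. The myeloid set has 4 genes (*Spi1*, *Irf8*, *Runx1*, *Mef2c*) and the astroglial set 5 (*Sox9*, *Sox2*, *Nfia*, *Nfib*, *Hes5*).

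The study compared wild-type (WT) C57BL/6 mice with homozygous Atxn2-CAG100-knockin (KIN) mice, in which the CAG repeat of the ataxin-2 gene is expanded to model spinocerebellar ataxia type 2. All mice were untreated and 10 months old, WT and KIN animals were littermates of matched sex, and both sexes were used. Each brain was dissociated and sorted with magnetic beads in sequence: CD11b beads took the microglia fraction, ACSA-2 beads then took the astrocyte fraction, and the flow-through left after depletion of non-neuronal and CD31-positive cells was the neuronal fraction. That last fraction was therefore defined by what it lacked and not by a neuronal label. With 3 libraries for each genotype in each of 3 fractions there were 18 libraries of total RNA. GEO's labels call the libraries biological replicates, and the sources used here do not say which libraries of different fractions came from the same mouse.

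The astrocyte and microglia libraries held 2118317 to 3296398 counts each. The neuronal libraries were shallower, with 761481 to 1017972 counts in WT and 1473194 to 2017932 in KIN. In every library the 10 most abundant rows took 75.8 to 85.4% of the counts. Levels are given as CPM (a gene's counts divided by its library's size and put on a common scale of 1e6), with library sizes scaled by the trimmed mean of M values (TMM). A count of 3 in 1 library, the most that a count of 0 leaves possible, equalled 0.861 to 1.53 CPM in the glial fractions and 1.93 to 4.02 CPM in the neuronal fraction. These floors cover counting error only.

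Marker genes were checked against the sort. The 10 microglia markers summed to 926 to 1513 CPM in the microglia fraction and to at most 14.5 CPM elsewhere. Summed astrocyte markers (10 genes) were at 398 to 1042 CPM in the astrocyte fraction and at most 34.8 CPM elsewhere, but the astrocyte libraries also held 449 to 688 CPM (WT) and 793 to 802 CPM (KIN) of 11 oligodendrocyte lineage markers. In KIN the latter exceeded the astrocyte marker sum of 398 to 425 CPM. For the neuronal fraction the label rested on less. The 10 neuron markers summed to 99.2 to 174 CPM there, against 35.6 to 126 CPM in the WT astrocyte libraries. Of these 10 genes, 4 (*Gad1*, *Gad2*, *Stmn2*, *Tubb3*) were called higher in the neuronal than in the astrocyte fraction and 3 (*Eno2*, *Snap25*, *Syt1*) were called lower. Neuronal WT library 2 stood apart with 284 CPM of the oligodendrocyte lineage markers, while the other neuronal libraries had 26.8 to 49.4 CPM.

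As background, PU.1 (the product of *Spi1*) is an ETS factor without which macrophages and microglia do not form, and it binds DNA together with IRF8. RUNX1 acts in blood cell formation and in early microglia, and MEF2C is shared by microglia and neurons. On the astroglial side, SOX9 switches neural progenitors from making neurons to making glia and induces NFIA, and NFIA and NFIB then drive astrocyte genes. SOX2 keeps neural stem cells undifferentiated and remains in adult astrocytes. HES5 is a repressor switched on by Notch signalling through the DNA-binding factor RBPJ.

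The promoter table (RefSeq, GRCm38.p6), with 250 bases before and 50 after each start, held 10 promoters of 6 of the 9 genes. It was searched on both strands for GTGGGAA (RBPJ), TTCNNNGAA (the STAT element GAS), TGTGGTT (RUNX), ACAAAG (SOX) and AGGAAGT (PU.1). The single *Hes5* promoter and 1 of the *Irf8* promoters are shown because each held 2 matches to the element of a signal known to act on that gene, Notch for *Hes5* and interferon for *Irf8*. The 250 bases before the start are given 5′ to 3′, at chr4:154960673-154960922 for *Hes5* and chr8:120736108-120736357 for *Irf8*, both on the plus strand. Capitals mark the RBPJ matches in *Hes5* and the GAS matches in *Irf8*.

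Hes5: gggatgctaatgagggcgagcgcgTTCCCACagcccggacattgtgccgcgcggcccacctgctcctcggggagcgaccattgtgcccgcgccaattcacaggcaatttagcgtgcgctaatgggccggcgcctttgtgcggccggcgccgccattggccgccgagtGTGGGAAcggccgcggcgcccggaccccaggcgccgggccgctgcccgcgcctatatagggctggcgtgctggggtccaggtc

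Irf8: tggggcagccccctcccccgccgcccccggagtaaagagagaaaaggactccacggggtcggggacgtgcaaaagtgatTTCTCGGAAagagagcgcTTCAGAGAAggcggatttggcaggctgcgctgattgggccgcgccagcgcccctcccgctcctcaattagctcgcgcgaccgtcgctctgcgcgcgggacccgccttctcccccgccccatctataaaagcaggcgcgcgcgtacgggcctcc

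The *Hes5* matches began 226 and 83 bases before the start, the farther of them on the opposite strand, and 6.38% of the 32851 promoters in the table held this motif. In *Irf8* the matches began 171 and 153 bases before the start and did not overlap each other, and 8.3% of all promoters held the motif. *Runx1* had 2 RUNX matches in 1 promoter, which began 27 and 35 bases after the start, beside 5.27% of all promoters with this motif. The SOX letters were found in 4 of the 10 promoters (*Sox2*, *Hes5* and 2 of *Mef2c*) and in 18.7% of all promoters. The PU.1 letters were in 0 of the 10 and in 9.35% of all promoters, which says only that these letters were not in these windows. The RBPJ letters were also present in an *Irf8* promoter and the GAS letters in a *Mef2c* promoter. A match is a description of the sequence and not a binding site.

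Across fractions the 4 myeloid factors were all highest in microglia, and 4 of the 5 astroglial factors were lowest or at the counting floor there. *Sox9* and *Hes5* were highest in astrocytes, *Nfib* was highest in the neuronal fraction and *Nfia* was not called between any pair of fractions. In bulk fractions, fewer cells of a type and less RNA per cell cannot be told apart. The edgeR quasi-likelihood test called a gene where its adjusted p did not exceed 0.05 and its log2 fold change (log2FC) reached 1 in either direction. Microglia were compared with astrocytes over 13536 genes, of which 14.9% were called higher and 18.3% lower in microglia, and 4 of the 9 factors were called in each direction. For neuronal libraries against astrocytes, 11.5% of all genes were called higher and 19.2% lower, and of the 9 factors 1 was higher (*Nfib*) and 2 were lower (*Sox9*, *Hes5*). Between microglia and the neuronal fraction, 17.2% of all genes were called higher and 10.3% lower in microglia, and of the factors 4 were higher and 3 lower. The median log2FC of all genes was −0.27 for neuronal against astrocyte libraries and 0.15 for microglia against neuronal libraries.

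**Figure D1:**
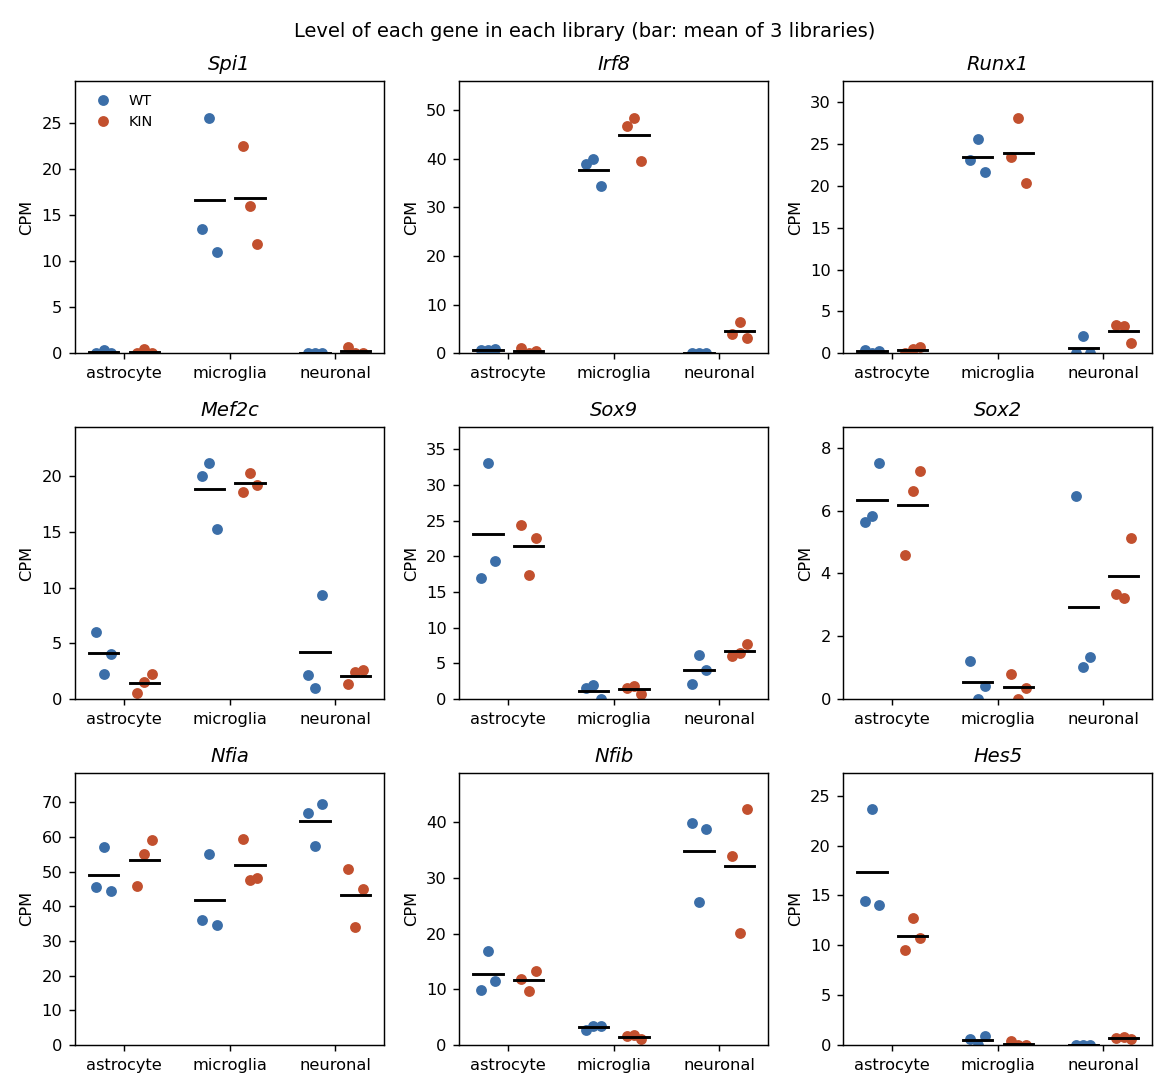
Level of each of the 9 genes in CPM (linear vertical axis from 0) in each of the 18 libraries, by fraction, with WT in blue, KIN in red and a black bar at the mean of 3 libraries. The 4 myeloid genes are highest in the microglia columns, *Sox9* and *Hes5* are highest in the astrocyte columns, *Nfib* is highest in the neuronal columns, and the *Nfia* points of all fractions lie between 33.9 and 69.7 CPM.

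*Spi1* (ENSMUSG00000002111; GRCm39 chr2:90912562-90946101, plus strand, protein-coding) encodes PU.1, the pioneer factor of the myeloid lineage. In microglia the WT libraries 1, 2 and 3 held 45, 52 and 26 counts and the KIN libraries 57, 45 and 34. These were 13.5, 25.6 and 11.0 CPM in WT and 22.6, 16.0 and 11.9 CPM in KIN, so the genotypes overlapped. Outside microglia 1 WT astrocyte, 1 KIN astrocyte and 1 KIN neuronal library had a single count each, and the other 9 libraries had 0. The microglia mean was 16.8 ± 6.01 CPM (SD, n = 6), at least 15.5-fold higher than in astrocytes and at least 6.03-fold higher than in the neuronal fraction when those were set at their floors of 3 counts per library. Both differences were called by edgeR, with adjusted p = 6.2e-27 against astrocytes and 6.2e-18 against neuronal libraries.

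*Irf8* (ENSMUSG00000041515; chr8:121463096-121485659, plus strand) encodes the interferon regulatory factor that partners PU.1. Its microglia libraries read 38.9, 39.9 and 34.3 CPM in WT and 46.8, 48.5 and 39.5 CPM in KIN from 81 to 136 counts per library, and each of them lay above every other library. Astrocyte libraries had 0 to 4 counts (0.637 ± 0.407 CPM, SD, n = 6). In the neuronal fraction the 3 WT libraries had 0 counts and the KIN libraries 6, 8 and 5, which was 4.00, 6.46 and 3.21 CPM. With libraries under 3 counts set at that floor, as in all folds against such libraries below, microglia were at least 36.5-fold above astrocytes and at least 10.3-fold above neuronal libraries (adjusted p = 1.5e-37 and 1.1e-25, edgeR). Neuronal and astrocyte libraries overlapped, and their edgeR test gave a log2FC of −0.56 (SE 0.775, adjusted p = 0.614). That sign is opposite to the means of 2.28 CPM in the neuronal fraction and 0.637 CPM in astrocytes, in a fit where the neuronal WT libraries were at 0. With KIN libraries only the log2FC was 2.81 (adjusted p = 0.0013), so no direction is read from the fit of both genotypes.

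*Runx1* (ENSMUSG00000022952; chr16:92398354-92623037, minus strand) encodes the runt-domain factor of blood cell formation. The microglia libraries were close together at 23.1, 25.6 and 21.6 CPM in WT and 23.4, 28.1 and 20.3 CPM in KIN. Astrocyte libraries had 0 to 2 counts. Neuronal libraries held 0, 2 and 0 counts in WT and 5, 4 and 2 in KIN. Microglia (23.7 ± 2.83 CPM, SD, n = 6) were at least 21.8-fold above astrocytes and at least 7.55-fold above neuronal libraries (log2FC 4.02, SE 0.363, adjusted p = 1.9e-18 for the latter). Between neuronal and astrocyte libraries the log2FC was 2.08 (SE 0.868) with adjusted p = 0.0508, which missed the threshold.

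*Mef2c* (ENSMUSG00000005583; chr13:83652064-83815555, plus strand) encodes a MADS-box factor of muscle, neurons and microglia, and was the least exclusive of the myeloid set. Microglia read 20.1, 21.2 and 15.3 CPM in WT and 18.6, 20.3 and 19.2 CPM in KIN. Astrocyte libraries had 5.99, 2.27 and 4.06 CPM in WT and 0.574, 1.53 and 2.29 CPM in KIN. Neuronal libraries read 2.16, 1.02 and 9.38 CPM in WT and 1.33, 2.42 and 2.57 CPM in KIN, with 1 WT library far above the other neuronal libraries. All microglia libraries lay above all others. The mean was at least 6.74-fold higher than in astrocytes (log2FC 2.98, SE 0.263, adjusted p = 2.5e-19) and at least 5.06-fold higher than in the neuronal fraction (log2FC 2.73, SE 0.318, adjusted p = 1.1e-12), while neuronal and astrocyte libraries were not called different (log2FC 0.25, SE 0.444).

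*Sox9* (ENSMUSG00000000567; chr11:112673009-112678586, plus strand), the SRY-box factor that starts gliogenesis, was ordered astrocytes, neuronal fraction, microglia with no overlap between neighbours. Astrocyte libraries read 16.9, 33.1 and 19.4 CPM in WT and 24.4, 17.3 and 22.5 CPM in KIN. Neuronal libraries read 2.16, 6.14 and 4.02 CPM in WT and 6.00, 6.46 and 7.71 CPM in KIN. Microglia had 0 to 5 counts per library and 1.26 ± 0.754 CPM (SD, n = 6). The gap between these 2 fractions rests on few counts. Neuronal WT library 1 read 2.16 CPM from 2 counts, and the highest microglia library, WT 2, read 1.97 CPM from 4 counts. Astrocytes were at least 3.98-fold above the neuronal fraction (log2FC of neuronal against astrocyte libraries −2.07, SE 0.277, adjusted p = 2.9e-10) and at least 14.6-fold above microglia (log2FC −4.10, SE 0.289). The neuronal fraction was at least 3.55-fold above microglia (log2FC of microglia against neuronal libraries −2.03, SE 0.447, adjusted p = 1.0e-04), a call that was lost with WT libraries only (−1.91, adjusted p = 0.0923).

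*Sox2* (ENSMUSG00000074637; chr3:34704554-34706610, plus strand, a single-exon gene inside the transcript unit *Sox2ot*) keeps neural stem cells in their state. The astrocyte libraries read 5.64, 5.83 and 7.50 CPM in WT and 4.59, 6.63 and 7.26 CPM in KIN. Neuronal libraries read 6.47, 1.02 and 1.34 CPM in WT and 3.33, 3.23 and 5.14 CPM in KIN. With 8 counts in all 6 microglia libraries, the microglia mean was 0.461 ± 0.467 CPM (SD, n = 6). The astrocyte mean was at least 5.16-fold above microglia (log2FC of microglia against astrocytes −3.52, SE 0.435, adjusted p = 7.1e-12), and the neuronal mean was at least 2.83-fold above microglia (log2FC of microglia against neuronal libraries −2.69, SE 0.590, adjusted p = 9.9e-05) although the libraries overlapped. Without neuronal WT library 1 that call was lost (log2FC −2.03, adjusted p = 0.059). Astrocyte and neuronal libraries overlapped and were not called different (log2FC −0.83, SE 0.375, adjusted p = 0.0733). They were called different without neuronal WT library 1 (log2FC −1.50, adjusted p = 0.0118) and with the most abundant row per name (−1.07, adjusted p = 0.0144).

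*Nfia* (ENSMUSG00000028565; chr4:97660971-98007111, plus strand), the nuclear factor I member that opens astrocyte genes, was called in none of the 3 comparisons of fractions. The astrocyte libraries read 45.5, 57.0 and 44.4 CPM in WT and 45.9, 55.1 and 59.2 CPM in KIN. The microglia libraries read 35.9, 55.2 and 34.8 CPM in WT and 59.4, 47.7 and 48.3 CPM in KIN. The neuronal libraries read 66.9, 57.3 and 69.7 CPM in WT and 50.7, 33.9 and 45.0 CPM in KIN. Over both genotypes all 3 fractions overlapped, but in WT every neuronal library was above every astrocyte and microglia library, while in KIN the fractions overlapped. The log2FC was −0.14 (SE 0.179, adjusted p = 0.57) for microglia against astrocytes, 0.05 (SE 0.186) for neuronal libraries against astrocytes and −0.19 (SE 0.188) for microglia against neuronal libraries. That last value was −0.77 with WT libraries only (adjusted p = 0.11) and 0.25 with KIN libraries only, and with a mean of at least 10 counts it was −0.44 (adjusted p = 0.0365), short of the fold required for a call. At 82 to 150 counts in each microglia library, where *Sox9* had 0 to 5, its microglia counts were well above the floor.

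*Nfib* (ENSMUSG00000008575; chr4:82208410-82623987, minus strand) encodes the closest relative of NFIA with a role in glia and in newborn neurons. It was ordered neuronal fraction, astrocytes, microglia with no overlap. Neuronal libraries read 39.9, 25.6 and 38.9 CPM in WT and 34.0, 20.2 and 42.4 CPM in KIN. The astrocyte libraries read 9.87, 16.9 and 11.6 CPM in WT and 11.8, 9.69 and 13.4 CPM in KIN. In microglia it read 2.69, 3.45 and 3.39 CPM in WT and 1.58, 1.78 and 1.05 CPM in KIN. The neuronal mean was 2.75-fold above astrocytes (log2FC 1.45, SE 0.204, adjusted p = 1.7e-09) and 14.4-fold above microglia (log2FC of microglia against neuronal libraries −3.93, SE 0.267), and astrocytes were 5.24-fold above microglia (log2FC of microglia against astrocytes −2.48, SE 0.278).

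*Hes5* (ENSMUSG00000048001; chr4:155045373-155046828, plus strand), the Notch effector, was highest in astrocytes, where WT libraries held 41, 73 and 45 counts and KIN libraries 33, 25 and 28. These were 14.5, 23.7 and 14.1 CPM in WT and 9.47, 12.8 and 10.7 CPM in KIN. The microglia libraries had 0 to 2 counts and the neuronal libraries 0 or 1. Its mean was at least 12.2-fold lower in microglia and at least 5.1-fold lower in the neuronal fraction, both called by edgeR (adjusted p = 1.7e-23 and 1.4e-15).

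**Figure D2:**
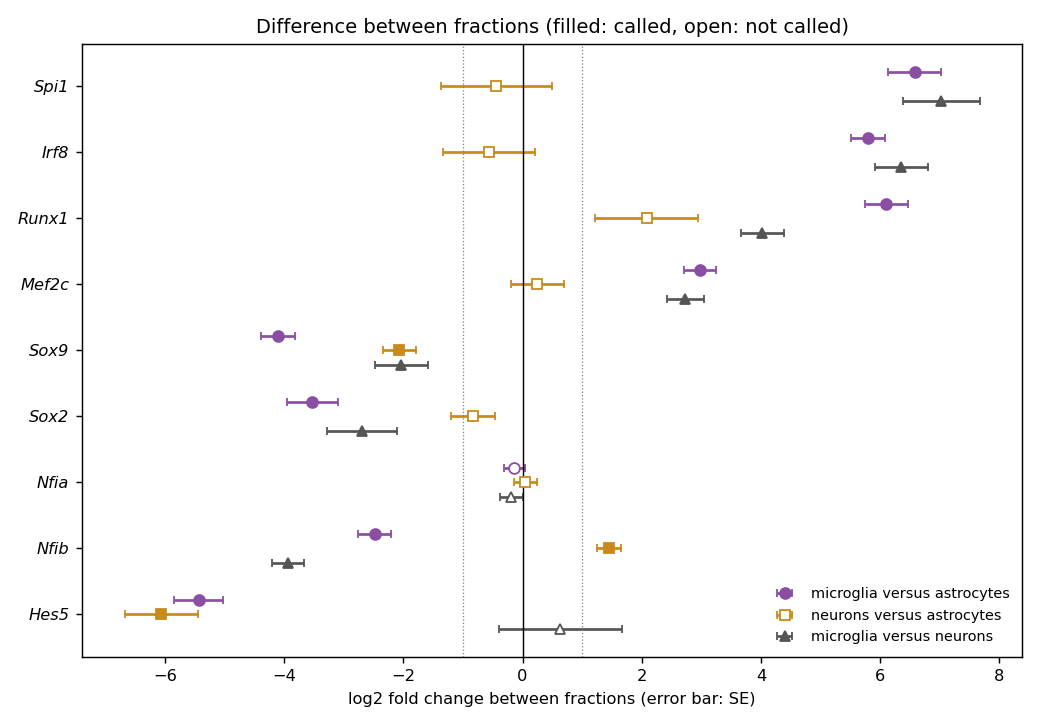
Log2 fold change of each of the 9 genes between fractions (horizontal axis), with SE as the error bar, for microglia against astrocytes (circles), neuronal against astrocyte libraries (squares) and microglia against neuronal libraries (triangles). Filled symbols are called and open ones are not, dotted lines mark a log2FC of 1 in either direction, and *Nfia* lies within 0.19 of 0 in all 3 comparisons.

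The other genes of the same pathways were read from lists, and genes among those with the smallest p are named. Of 28 other myeloid transcription factors, 27 were tested, and 23 were higher and 0 lower in microglia than in astrocytes, with a median log2FC of 2.12 beside −0.02 for all genes. *Irf5* (log2FC 6.35), *Cebpa* (4.98) and *Maf* (3.91), macrophage regulators of the bZIP and IRF families, were among those with the smallest p. Against the neuronal fraction 22 of the 27 were higher in microglia and 1, *Runx3*, was lower. Between neuronal and astrocyte libraries 5 of them were higher in the former (*Ikzf1*, *Irf7*, *Maf*, *Rel*, *Runx3*) and 3 lower (*Bhlhe41*, *Cebpd*, *Irf2*). The smallest p among these was that of *Runx3*, a runt-domain factor of lymphocytes, with a log2FC of 2.59 (SE 0.444), in libraries where *Cd3e* also read 4.00 to 11.6 CPM against at most 0.705 CPM in astrocytes. Of 18 targets and receptors of the myeloid program, 17 were higher and 0 lower in microglia against either other fraction, with *Csf1r*, the receptor on which microglia depend, at a log2FC of 6.16 against astrocytes.

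Of 32 other astroglial transcription factors, 30 were tested. In microglia 19 were lower and 1, *Sox5*, was higher than in astrocytes, with a median log2FC of −1.87. *Sox8* (log2FC −6.25), *Id4* (−4.84), *Npas3* (−5.44) and *Zbtb20* (−1.67) had the smallest p. Among neuronal libraries 17 were lower than in astrocytes. Against the neuronal fraction, microglia had 6 higher and 6 lower. Of 16 known targets of SOX9 and NFIA, 13 were lower in microglia and 15 were lower in the neuronal fraction than in astrocytes, *Apcdd1* being the gene higher in the neuronal fraction. The glutamate transporter gene *Slc1a2* had a log2FC of −5.29 in microglia and −5.60 in neuronal libraries, and *Aldoc*, the brain aldolase, had −6.25 in microglia and 0 counts in all 6 neuronal libraries.

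The Notch pathway list had 30 genes, *Hes5* among them, of which 28 were tested. In microglia 9 were lower (*Dll1*, *Dtx1*, *Hes5*, *Hey1*, *Heyl*, *Jag1*, *Notch1*, *Notch3*, *Nrarp*) and 5 higher (*Adam17*, *Dll3*, *Maml1*, *Notch4*, *Numb*) than in astrocytes. The receptor gene *Notch1* read 28.5 ± 5.42 CPM in astrocytes and 9.15 ± 2.23 CPM in microglia (SD, n = 6 each; log2FC −1.63, SE 0.2). Neuronal libraries had 13 lower than astrocytes and *Dll3* higher, and between microglia and neuronal libraries 10 were higher and 2 lower. In microglia the list therefore went to both sides, with 5 higher and 9 lower of 28, beside 14.9% and 18.3% of all genes, and a median log2FC of 0.02. In the neuronal fraction 13 of 28 were lower, beside 19.2% of all genes, with a median of −0.90 beside −0.27 for all genes.

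Families of the 9 genes (SPI, IRF, RUNX, MEF2, SOXB and SOXE, NFI and HES, 31 in the table, the 9 included) had 11 of 29 tested genes higher and 8 lower in microglia than in astrocytes. Relatives did not all follow their family member. *Sox10*, the oligodendrocyte factor, had a log2FC of −5.29 in microglia and −4.59 in the neuronal fraction against astrocytes, and *Runx3* was lower in microglia than in neuronal libraries where *Runx1* was higher. The relative *Nfix* had a log2FC of −1.39 and *Nfic* of 1.35 in microglia against neuronal libraries, where *Nfib* had −3.93.

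Over the 18 libraries, the patterns most like each gene were ranked among 4990 genes by Pearson r of log2 CPM, as a description that reflects the 3 fractions more than single libraries. *Spi1* was nearest to *Fcer1g* (r = 0.997), *P2ry6* (0.99) and *Gpr34* (0.989). *Irf8* was nearest to *Stab1* (0.981), *Cotl1* and *Sipa1*, *Runx1* to *Junb* (0.976), *Blnk* and *Arrb2*, and *Mef2c* to *Slc7a8* (0.949), *Nckap1l* and *Ly86*. *Sox9* was nearest to *Gstm5* (0.959), *S100a16* and *Daam2*, and *Hes5* to the brevican gene *Bcan* (0.983), *Nkain4* and *Gpr37l1*. For *Sox2* they were *Apba2* (0.95), *Stmn4* and *Gm38393*, and for *Nfib* the tubulin gene *Tubb2b* (0.97), the stathmin gene *Stmn1* (0.957) and *Ncapd2*. *Nfia* had no close companion, with *Arpp19* nearest at r = 0.783. Among the 9 genes, the 3 pairs of *Spi1*, *Irf8* and *Runx1* had r of 0.927 to 0.958, and *Sox9* had r = 0.837 with *Hes5* and 0.803 with *Sox2*.

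By transcript, *Sox9* and *Sox2* have 1 row each. For *Spi1*, ENSMUST00000002180 held 216 of 259 microglia counts (83.4%, 95% Wilson interval 78.4 to 87.4), and for *Hes5*, ENSMUST00000049621 held 227 of 245 astrocyte counts (92.7%, 88.7 to 95.3). *Irf8* counts in microglia fell on ENSMUST00000047737 (46.6%), ENSMUST00000162001 (20.3%), the retained-intron form ENSMUST00000162775 (15.8%) and ENSMUST00000160943 (12.0%). *Runx1* counts in microglia fell on ENSMUST00000113956 (40.4%), the retained-intron form ENSMUST00000189126 (28.2%) and ENSMUST00000023673 (17.0%). *Nfia* was split over 5 long coding transcripts at 16.8 to 23.2% each in every fraction, and none of the 31 *Mef2c* rows held more than 14.6% in astrocytes or 10.8% in microglia. Retained-intron rows held 30.2% of the *Nfib* counts in astrocytes (64 of 212), 47.2% in microglia (17 of 36) and 15.0% in the neuronal fraction (35 of 233). Isoforms share most of their sequence and reads can fall on any of them, so these shares are less certain than the gene sums. Counting did not use strand, and 8 of the 9 genes (all but *Irf8*) overlap an annotated gene on the opposite strand, so reads of such a partner cannot be told apart from theirs.

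The KIN comparison asks whether the CAG expansion changes these factors within a fraction. In the edgeR fits on the 6 libraries of each fraction, 1 of the 9 genes was called: *Mef2c* was lower in KIN astrocytes. In astrocytes 6 of the 9 genes passed the filter on low counts and 1 was called, beside 8.83% of all 11738 genes tested. In microglia 7 were tested and 0 called, beside 1.52% of all genes. Of the 5 tested in the neuronal fraction 0 were called, beside 0.0148% of all genes, that is 1 of 6756. These shares of all genes depend on single libraries: leaving out 1 gave as few as 574 called genes in astrocytes beside 1037, 35 to 456 in microglia beside 164 and 0 to 22 in the neuronal fraction. At an unadjusted p of at most 0.05 there were 2 of 6 in astrocytes (*Mef2c*, *Hes5*), beside 24.9% of all genes, 1 of 7 in microglia (*Nfib*), beside 12.0%, and 2 of 5 in the neuronal fraction (*Irf8*, *Nfia*), beside 5.03%. DESeq2, which gave an adjusted p to 5 of the genes in microglia and 5 in the neuronal fraction, called 0 in either.

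*Mef2c* counts in astrocytes were 17, 7 and 13 in WT and 2, 3 and 6 in KIN. The means were 4.11 ± 1.86 CPM in WT and 1.47 ± 0.861 CPM in KIN (SD, n = 3), with the lowest WT library at 2.27 and the highest KIN library at 2.29 CPM, so the groups touched. The log2FC was −1.55 (SE 0.504, adjusted p = 0.0333). The call was lost without WT library 1 (log2FC −1.20, adjusted p = 0.237), WT library 3 (−1.55, 0.108), KIN library 1 (−1.05, 0.245) or KIN library 2 (−1.605, 0.0625), and with DESeq2 (−1.56, 0.206). Neuron markers moved with it: the 10 markers summed to 126, 35.6 and 107 CPM in the WT and 27.0, 27.0 and 41.3 CPM in the KIN astrocyte libraries, 9 of 10 were called lower in KIN, and all 10 had counts in both groups. Microglia markers summed to 6.16 to 11.3 CPM in WT and 5.17 to 8.16 CPM in KIN, and border macrophage and leukocyte markers to 6.16 to 8.81 and 3.57 to 4.97 CPM. The WT library with the lowest *Mef2c*, library 2, had the lowest WT sum of all 3 marker sets (neuron 35.6, microglia 6.16, leukocyte 6.16 CPM). The part of these transcripts in the *Mef2c* difference was not tested. In microglia, where *Mef2c* was highest, KIN and WT read 19.4 ± 0.852 and 18.8 ± 3.15 CPM (log2FC 0.05, SE 0.238).

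*Hes5* was lower in every KIN than in every WT astrocyte library, at 11.0 ± 1.66 against 17.4 ± 5.43 CPM (SD, n = 3), a log2FC of −0.70 (SE 0.254). It was not called, with adjusted p = 0.0595. It was 1 of the 6 tested genes whose astrocyte libraries did not overlap, beside 27.9% of all genes in that fraction. The 10 astrocyte markers also read lower in KIN astrocyte libraries, with sums of 398 to 425 CPM against 716 to 1042 CPM and 5 of 10 called lower (*Fgfr3*, *Gja1*, *Gjb6*, *Slc1a2*, *Slc7a10*), while the oligodendrocyte lineage markers were higher in KIN by the sums above, with 3 of 11 called higher (*Cnp*, *Mog*, *Sox10*). The 5 ependymal markers summed to 43.6 to 54.1 CPM in KIN and 24.6 to 26.6 CPM in WT, with 1 called higher (*Rsph1*). The part of cell composition in the *Hes5* difference was not tested. The other astroglial factors were close between genotypes in the same libraries: *Sox9* had a log2FC of −0.11 (SE 0.235), *Sox2* of −0.09 (SE 0.315), *Nfia* of 0.11 (SE 0.208) and *Nfib* of −0.14 (SE 0.256).

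In microglia, the myeloid factors were also close between genotypes. *Spi1* had a log2FC of 0.04 (SE 0.299), *Irf8* of 0.26 (SE 0.224), *Runx1* of 0.04 (SE 0.235) and *Mef2c* of 0.05 (SE 0.238). Of the astroglial factors *Nfia* had 0.32 (SE 0.240). *Sox9*, with at most 5 counts a library, had 0.22 (SE 0.805). *Nfib* was lower in every KIN library, with 9, 7 and 8 counts in WT and 4, 5 and 3 in KIN, or 3.18 ± 0.420 against 1.47 ± 0.379 CPM (SD, n = 3). Its log2FC of −1.06 (SE 0.509) was not called (adjusted p = 0.408), and it was 1 of 7 tested genes with no overlap, beside 16.0% of all genes. Neuron markers in the same libraries summed to 65.0, 19.2 and 58.1 CPM in WT and 9.91, 12.5 and 14.3 CPM in KIN (5 of 10 called lower). Astrocyte markers summed to 23.2 to 34.8 and 16.3 to 17.5 CPM, with *Gjb6* at 0 in KIN and at 1, 0 and 1 counts in WT. WT library 2, with the lowest WT neuron marker sum, had 3.45 CPM of *Nfib*, beside 2.69 and 3.39 CPM in WT libraries 1 and 3. The part of neuron and astrocyte transcripts in the *Nfib* difference was not tested.

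In the neuronal fraction *Irf8* was at 0 counts in all 3 WT libraries, which allows up to 3.24, 3.07 and 4.02 CPM, and at 4.00, 6.46 and 3.21 CPM in KIN. The KIN mean of 4.56 ± 1.69 CPM (SD, n = 3) was at least 1.32-fold higher than the WT floor, and the lowest KIN library was below the highest WT floor. The fitted log2FC was 5.35 (SE 1.67), which depends on the prior count, and adjusted p = 0.508. Microglia markers in these libraries summed to 7.55 to 9.21 CPM in WT and 7.71 to 14.5 CPM in KIN, with *Aif1*, *Tmem119*, *P2ry12*, *C1qb* and *C1qc* at 0 in both. The 12 border macrophage and blood leukocyte markers summed to 20.5 to 33.4 CPM in WT (7 of 12 at 0) and 32.1 to 44.4 CPM in KIN (4 of 12 at 0). *Cd3e*, a T cell gene, and *Ly6c2* had counts in both, while *Mrc1*, *Pf4*, *S100a8* and *S100a9* were at 0 in both. The part of such cells, and of the greater depth of the KIN libraries, in the *Irf8* difference was not tested.

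*Nfia* in the neuronal fraction was lower in every KIN library, at 43.2 ± 8.53 against 64.6 ± 6.47 CPM (SD, n = 3), a log2FC of −0.79 (SE 0.248) with adjusted p = 0.508. By the counts as they stand 2 of 5 tested genes had no overlap, beside 13.9% of all genes, but for *Irf8* this does not hold against the floors above, which leaves *Nfia*. *Sox9* had a log2FC of 0.49 (SE 0.574), *Sox2* of 0.19 (SE 0.774) and *Nfib* of −0.31 (SE 0.302), with overlapping libraries.

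**Figure D3:**
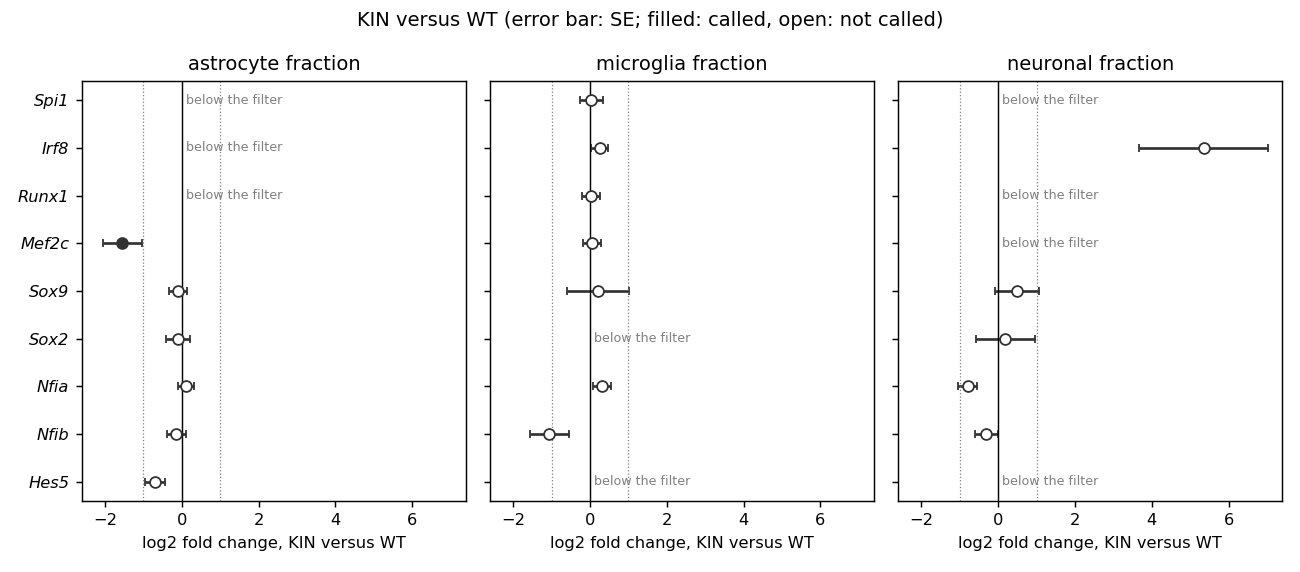
Log2 fold change of KIN against WT (horizontal axis) for each gene in the astrocyte, microglia and neuronal fraction, with SE as the error bar and "below the filter" where a gene had too few counts to be tested. The filled point, *Mef2c* in astrocytes at −1.55, is the 1 call, and the wide bar at 5.35 is *Irf8* in the neuronal fraction, where the WT libraries had 0 counts.

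Whether the KIN effect differed between fractions was tested as an interaction over all 18 libraries. None of the 9 genes was called in any of the 3 contrasts by edgeR, and DESeq2 called 0 of the 6, 3 and 3 genes to which it gave an adjusted p in the contrasts of microglia with astrocytes, neuronal with astrocyte and microglia with neuronal libraries. Of all genes 0.82% were called for microglia minus astrocytes, 0.754% for neuronal minus astrocyte libraries and 0.14% for microglia minus neuronal libraries. At an unadjusted p of at most 0.05 there was 1 gene in the first contrast (*Mef2c*, 1.57, SE 0.582, adjusted p = 0.222), 1 in the second (*Irf8*, 6.62, adjusted p = 0.0759) and 3 in the third (*Irf8*, −6.07, adjusted p = 0.078; *Nfia*, 0.88, adjusted p = 0.417; and *Hes5*), beside 11.2%, 12.4% and 9.77% of all genes at that threshold. No value is given for *Hes5*, which had at most 2 counts in any microglia or neuronal library, and the fitted values of *Irf8* depend on the prior count. The *Mef2c* call in astrocytes is thus not shown to differ from microglia. Over all genes the median of the contrasts with the neuronal fraction was 0.29 and −0.30.

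**Figure D4:**
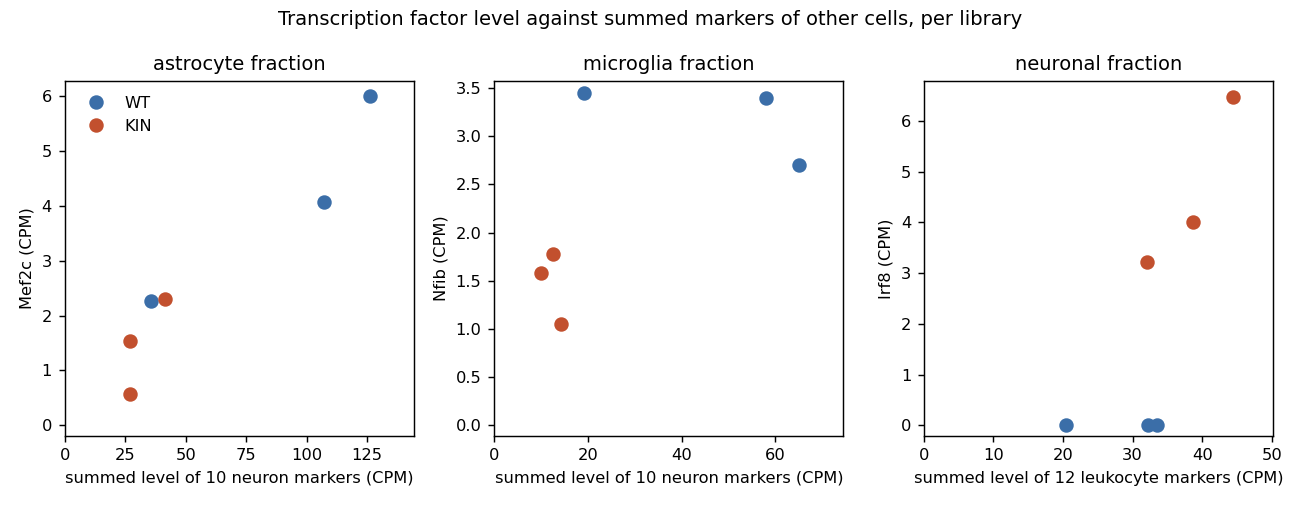
Level of a transcription factor in CPM (vertical axis) against the summed level of markers of other cells in CPM (horizontal axis) in the 6 libraries of a fraction, WT in blue and KIN in red. Left, *Mef2c* and 10 neuron markers in astrocytes, with KIN sums of 27.0 to 41.3 CPM; middle, *Nfib* and 10 neuron markers in microglia; right, *Irf8* and 12 leukocyte markers in the neuronal fraction, where WT points lie at 0.

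Pathway lists were also read in the KIN comparison. Other myeloid factors had 0 called in astrocytes (21 tested), microglia (27) and the neuronal fraction (10). Of other astroglial factors *Sox5*, an SRY-box factor, was called lower in KIN astrocytes (log2FC −1.66, SE 0.429, adjusted p = 0.00639, 12 to 21 counts in WT and 1 to 7 in KIN), in the libraries where 9 of 10 neuron markers were called lower (list median −2.06), and the part of those transcripts was not tested. Of the other astroglial factors 0 of 13 were called in microglia and 0 of 12 in the neuronal fraction. In the families *Sox10* was higher in KIN astrocytes (log2FC 1.07, SE 0.248, adjusted p = 0.00228). It is itself among the 11 oligodendrocyte lineage markers above and among the 3 of them called higher. Of the Notch list *Psenen*, a gamma-secretase subunit gene, was higher in KIN astrocytes (log2FC 1.24, adjusted p = 0.0107) and *Notch3*, a receptor of mural cells, was lower in KIN microglia (log2FC −2.75, adjusted p = 0.0434), with 13, 2 and 13 counts in WT and 2, 1 and 1 in KIN, so that WT library 2 read like KIN. Its interaction with astrocytes was called (−2.84, SE 0.756, adjusted p = 0.039). Pericyte and smooth muscle markers, *Notch3* among them, summed to 13.8, 9.86 and 17.8 CPM in these WT libraries and 7.53 to 9.09 CPM in KIN. These sums are in part *Notch3* itself, with 13 of 46, 2 of 20 and 13 of 42 counts in WT. In KIN it gave 2 of 19, 1 of 22 and 1 of 26 counts, and no other gene of that list was called there. Neuron markers moved too, as given above. *Rbpj*, the factor through which Notch acts on *Hes5*, read 10.1 ± 0.985 CPM in KIN and 7.31 ± 2.14 CPM in WT astrocytes (SD, n = 3) and was not called.

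Of the 16 targets of SOX9 and NFIA, 5 were called lower in KIN astrocytes and 0 higher, beside 6.41% of all genes called lower there, with a list median of −0.69 beside −0.004 for all genes. The genes called included *Slc1a2* (log2FC −1.34), *Gjb6* (−1.41), *Fgfr3* (−1.16) and *Glul* (−1.15). In the other direction *S100b* had 0.93 (adjusted p = 0.00228) and *Gfap* 0.80 (adjusted p = 0.0366), both short of the fold required for a call and named after their values were seen. *Slc1a2*, *Gjb6* and *Fgfr3* are also among the astrocyte markers, and the oligodendrocyte and ependymal marker sums were higher in the same KIN libraries. In KIN microglia 3 were called lower, beside 0.777% of all genes, among them *Slc1a2* (−2.66) and *Aldoc* (−3.22), all of them at 50 counts or fewer per library there, in the libraries where 5 of 10 neuron markers and the endothelial gene *Cldn5* were also called lower. The part of other cells in either difference was not tested. In the neuronal fraction 0 of 7 were called. Of the myeloid targets and receptors, the growth factor gene *Csf1* was higher in KIN microglia, with 104, 94 and 125 counts against 40, 16 and 21 in WT (log2FC 2.02, SE 0.255, adjusted p = 3.7e-05). Its interaction with astrocytes was called too (1.97, SE 0.449, adjusted p = 0.00803). *Itgam*, the gene of the CD11b sort antigen, was called lower in KIN astrocytes at 0 to 1 counts against 2 to 9 (log2FC −2.81, SE 0.967, adjusted p = 0.0465). All KIN libraries were under 3 counts, so the size of this fold is uncertain. Of that list 0 of 4 tested genes were called in the neuronal fraction.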

How the data were processed

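RNA from 18 bead-sorted fractions was depleted of ribosomal RNA, polyadenylated and sequenced as panRNA-Seq with unique molecular identifiers on a NextSeq 500. Per the submitters' processing notes and methods, the authors trimmed reads with cutadapt 4.6, aligned them stepwise with Bowtie2 2.4.4 to small RNA, noncoding and Ensembl sequences (mm39) and counted them with HTSeq 2.0.2 without strand. The counts, deposited by the authors per transcript, were used as deposited. Left out were 36 columns of normalized per-library values, the authors' comparison columns (fold changes and p-values) and 137 rows without a gene name (at most 0.0305% of a library).

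Counts were summed by gene name. KIN and WT were compared in the 6 libraries of each fraction, and fractions and interactions in 1 fit of 18 libraries with 6 group means, with the quasi-likelihood test of edgeR 4.0.16 (R 4.3.3, limma 3.58.1). TMM scaling, a filter of 5 counts in at least 2 libraries and Benjamini-Hochberg adjustment over all genes tested were applied, and a gene was called at adjusted p of at most 0.05 and absolute log2FC of at least 1. The code was tested on simulated data. Named were the 9 genes, list genes called in a KIN comparison or with the 4 smallest p per fraction comparison, transcripts with at least 10% of a gene's counts and the 3 most similar genes (log2 CPM with prior count 2, mean of at least 10 counts). Some list genes that met this rule are counted but not reported by name here. The 9 genes and the lists were chosen with earlier results of these data known. For folds, libraries of the lower group under 3 counts were set at 3. Intervals and floors cover counting error only. Alternatives were DESeq2 1.42.0, other scalings and filters, other sets of libraries, the most abundant row per name, a replicate block and leaving out each library. Loci are from GENCODE (GRCm39) and promoters from RefSeq (GRCm38.p6).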

Additional observations from a re-analysis of the deposited data

How the results depend on the processing

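Among the comparisons of fractions, the 8 genes called between microglia and astrocytes kept their calls under every alternative in which they were tested (with a mean of at least 10 counts *Sox2* was not tested, which left 7). In KIN astrocytes the count of called genes fell from 1 (*Mef2c*) to 0 with DESeq2 (log2FC −1.56 beside −1.55, adjusted p = 0.206), and to 0 with a mean of at least 10 counts and with the most abundant row per name, where *Mef2c* was not tested. It was 0 to 1 when single libraries were left out. For neuronal libraries it rose from 0 to 1 with all 18 libraries in 1 fit (*Irf8*, log2FC 6.32, adjusted p = 0.0356). The 3 genes called between neuronal and astrocyte libraries became 5 without neuronal WT library 1, when *Runx1* and *Sox2* were added (3 to 5 over all single libraries left out), and the interaction of neuronal and astrocyte libraries had 0 to 1 called (*Irf8*, 7.86, adjusted p = 0.0413 without astrocyte KIN library 1). *Irf8* in the neuronal fraction against astrocytes reversed to 2.81 (adjusted p = 0.0013) with KIN libraries only. *Runx1* in that comparison was called in 7 alternatives (DESeq2: 2.23, adjusted p = 0.0371). Between microglia and the neuronal fraction *Sox9* was not called with WT libraries only (−1.91, adjusted p = 0.0923) nor *Sox2* without neuronal WT library 1 (−2.03, adjusted p = 0.059). The adjusted p of *Hes5* in KIN astrocytes ranged from 0.0368 to 0.247. Causes were not tested. Over all genes, the calls for KIN against WT numbered 1037 in astrocytes (400 with DESeq2), 164 in microglia (48 with DESeq2, 279 with no filter, 95 with a mean of at least 10 counts, 58 with the most abundant row) and 1 in the neuronal fraction (0 with DESeq2, 28 with no filter, 27 with all libraries in 1 fit). Without WT library 1 or 3 the astrocyte count was 614 or 574. Without WT library 2 the microglia count was 456, and without any other of the 6 it was 35 (KIN library 2) to 48 (WT library 1). In the neuronal fraction it was 22, 3 and 16 without WT libraries 1, 2 and 3 and 0 when any 1 KIN library was left out. The calls for fractions fell from 4492, 4154 and 3723 to 1783, 1851 and 1806 with a mean of at least 10 counts. Depth limits *Spi1*, *Runx1*, *Irf8* and *Hes5* outside their main fraction, where libraries had 8 counts or fewer.

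Deviations of WT and KIN libraries with the same number had r of −0.141 to 0.094 (0 of 9 pairs over 0.1). Although the methods isolate the fractions in sequence from 1 brain, the labels do not tie a number to a mouse, and fractions of the same genotype and number had r of −0.067 to 0.253, with 2 pairs over 0.1, both of WT astrocytes and microglia. The numbers were therefore not taken as pairs. With the replicate block 1 gene was called in KIN astrocytes (*Mef2c*, −1.60, adjusted p = 0.0142) and 0 in the other fractions, and with genotype and number as the block the fraction comparisons called 8, 3 and 7 genes, as without it. Over all genes the KIN calls under the block were 1195 in astrocytes and 154 in microglia, and those of the interaction of microglia with neuronal libraries rose from 19 to 31.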

Other observations

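The genes with patterns nearest to *Nfib* led to a set of 10 genes of immature neurons, chosen after the values were seen (*Dcx*, *Sox11*, *Dlx1*, *Dlx2*, *Sp8*, *Sp9*, *Igfbpl1*, *Meis2*, *Tubb2b*, *Stmn1*). Since they were picked for this pattern, their levels are a description with no test. *Sox11*, a factor of newborn neurons, read 93.2 ± 26.7 CPM in the neuronal fraction and 1.39 ± 0.911 CPM in astrocytes (SD, n = 6). *Dlx1*, a factor of inhibitory neuron precursors, read 129 ± 25.4 and 0.417 ± 0.406 CPM. The doublecortin gene *Dcx*, of migrating neurons, read 19.1 ± 7.50 and 1.77 ± 0.924 CPM. Gaps were smaller for *Stmn1* (59.9 ± 12.1 CPM in the neuronal fraction and 22.2 ± 5.66 CPM in astrocytes) and *Tubb2b* (28.9 ± 7.08 and 11.6 ± 3.32 CPM). Microglia read 1.98 ± 0.572 CPM for *Dcx*.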
